A study of Homo sapiens with 6 samples.

Results

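The genes of ceramide synthesis and breakdown were followed in HepaRG cells loaded with palmitate and oleate. Members were the rows of the deposited table whose symbol is SPTLC1, SPTLC2, SPTLC3, DEGS1, CERS2, CERS4, CERS5, CERS6, SMPD1 or ASAH1, 10 of 58037 gene rows. Of these, 8 encode enzymes of de novo synthesis and 2 encode lysosomal hydrolases. HepaRG is a human hepatic cell line, labelled as hepatocellular carcinoma cells, whose differentiated cultures hold hepatocyte-like beside biliary-like cells. All samples came from passages 15 to 18, were differentiated in the same way and received 0.02% bovine serum albumin for 72 h. In the 3 fatty acid samples the albumin carried 0.5 mM of palmitate and oleate at 1 part to 2 parts, and in the 3 control samples it carried no added fatty acid. No transgene or deletion is named for either group. The labels do not say whether replicates were separate cultures, so the p-values cover only the variation among these 6 samples, possibly a technical one.

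Ceramide is the core lipid of all sphingolipids. Serine palmitoyltransferase starts its synthesis in the endoplasmic reticulum by joining palmitoyl-CoA to serine, so palmitate is a direct substrate of the pathway. The product is reduced, joined to another fatty acyl chain by a ceramide synthase and desaturated to ceramide. Ceramide is also released in lysosomes from sphingomyelin and glycolipids, and ceramidases cleave it to sphingosine and a free fatty acid. In liver it is known as a lipid that accumulates in steatosis and that dampens insulin signalling.

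Values are FPKM (fragments scaled by gene length and by the assigned reads of the library), given per library in the order of replicates 1, 2 and 3. The libraries held 6.33 to 15.94 M reads, of which mitochondrial genes took 12.23 to 14.96% in controls and 9.15 to 11.91% with fatty acid, and each member had between 102 and 5047 reads in any library. All 10 members passed the minimum of 0.5 FPKM on average. Log2 fold changes are fatty acid minus control on the scale of log2(FPKM + 0.5), with their standard error or 95% interval. For low genes this scale understates a change. The adjusted p is that of limma over 14661 tested genes, and a gene is said to rise or fall where it is below 0.05. The response to loading was present, since the lipid droplet coat gene PLIN2 rose from 71.9 ± 4.8 to 194.3 ± 10.1 FPKM (SD, n = 3). PDK4, ANGPTL4 and CPT1A, all known targets of fatty acid-activated receptors, rose as well, with log2 fold changes of 1.57, 1.94 and 0.41. The call of CPT1A was lost without fatty acid replicate 1 or 2 (limma adjusted p of 0.0547 and 0.0532).

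Of the 10 ceramide genes, 1 rose and 1 fell, and both encode ceramide synthases: CERS6 rose and CERS4 fell. Over all tested genes 12.9% were called, 8.22% higher and 4.68% lower. The groups did not overlap for 4 members, 3 of them higher with fatty acid (SPTLC1, CERS5 and CERS6) and 1 lower (CERS4), against 37.1% of all tested genes. The median log2 fold change of the members was 0.02 and that of all tested genes 0.04. Both hydrolases, SMPD1 and ASAH1, had overlapping groups and neither was called. The list as a whole thus lay near the background, and its calls concern single ceramide synthases.

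**Figure D1:**
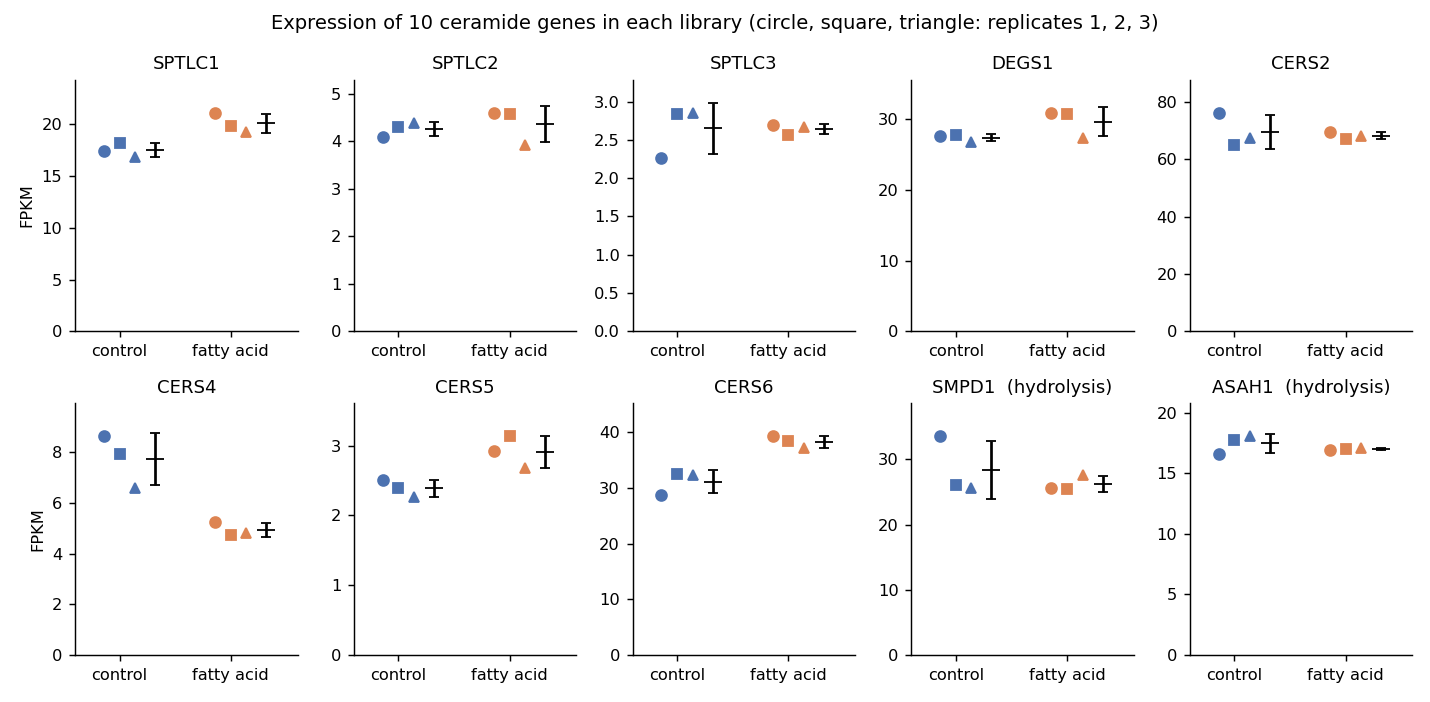
FPKM of each of the 10 genes (y axes from 0, a separate scale per gene) in control libraries (blue) and fatty acid libraries (orange), with circle, square and triangle for replicates 1, 2 and 3 and the mean with SD beside them. The groups separate for SPTLC1, CERS4, CERS5 and CERS6, with CERS4 lower and the others higher with fatty acid, and overlap for the remaining 6 genes.

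Serine palmitoyltransferase is built from SPTLC1 and either SPTLC2 or SPTLC3, with a small activating subunit, SPTSSA or SPTSSB. SPTLC1, the subunit shared by all forms (chromosome 9, 92031999 to 92115384, GRCh38), measured 17.4, 18.2 and 16.9 FPKM in controls and 21.1, 19.9 and 19.3 FPKM with fatty acid. All fatty acid libraries lay above all controls, by 15.0% of the mean. The log2 fold change was 0.20 ± 0.06 with a limma adjusted p of 0.0708, so SPTLC1 was not called.

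The catalytic partner SPTLC2 (chromosome 14, 77505997 to 77616773) measured 4.09, 4.30 and 4.38 FPKM in controls and 4.60, 4.57 and 3.92 FPKM with fatty acid. The lowest of its 6 values was fatty acid replicate 3, and the 2 others of that group were the highest. Its log2 fold change was 0.03, with a 95% interval of -0.16 to 0.22 (limma adjusted p = 0.838).

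SPTLC3, which widens the enzyme's choice of acyl-CoA (chromosome 20, 13008979 to 13169103), measured 2.27, 2.84 and 2.86 FPKM in controls and 2.69, 2.57 and 2.67 FPKM with fatty acid. Every fatty acid value lay within the range of the controls. Its interval was -0.24 to 0.24 (limma adjusted p = 0.995), and SPTLC3 made up 38.3 ± 2.3% of the summed SPTLC2 and SPTLC3 FPKM in controls and 37.8 ± 2.4% with fatty acid (SD, n = 3).

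The ratio of SPTLC1 to SPTLC2 plus SPTLC3 was 2.74, 2.55 and 2.33 in controls against 2.90, 2.79 and 2.93 with fatty acid. These ranges did not overlap, and the groups did not overlap for 37.1% of all tested genes. This ratio was not tested, and its size depends on the gene lengths used. The small subunit SPTSSA (chromosome 14, 34432789 to 34462356) was called, at 34.9, 35.1 and 35.5 FPKM in controls and 41.8, 46.1 and 41.1 FPKM with fatty acid. It rose by 0.28 ± 0.06 on the log2 scale (limma adjusted p = 0.0213). SPTSSB lay below the minimum, with 24 reads over the control libraries and 11 over the fatty acid libraries.

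ORMDL proteins hold serine palmitoyltransferase in check, and KDSR reduces its product. KDSR (chromosome 18, 63327726 to 63367510) measured 7.26, 7.64 and 7.82 FPKM in controls and 8.74, 9.42 and 9.08 FPKM with fatty acid. It rose by 0.25 ± 0.06 on the log2 scale (limma adjusted p = 0.0423). None of the 3 ORMDL genes was called. ORMDL3 had the smallest p of them, with a log2 fold change of -0.19 (95% interval -0.35 to -0.04, limma adjusted p = 0.0986). For ORMDL1 and ORMDL2 the log2 fold changes were -0.10 and 0.17, with limma adjusted p of 0.561 and 0.15. Of the 9 further de novo genes in this list, 5 were tested, 2 rose and 0 fell, with a median log2 fold change of 0.17.

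Both calls lay near the threshold. With 1 library fewer the log2 fold change stayed at 0.24 to 0.32 for SPTSSA and at 0.22 to 0.27 for KDSR, while calls over all genes dropped from 1891 to between 462 and 1612. SPTSSA lost its call when control replicate 3 was left out (limma adjusted p = 0.0519), when fatty acid replicate 1 or 2 was (0.0777 and 0.0816) and without the intensity trend (0.0604). KDSR was not called without any 1 of the 6 libraries (0.0684 to 0.161), nor with median-of-ratios, quantile or nuclear-read scaling (0.094, 0.0856 and 0.0938), no filter (0.0659), no trend (0.0707) or the replicate block (0.0653). ORMDL3 was called with median-of-ratios (0.0485) and nuclear-read scaling (0.0484).

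Ceramide synthases add the second acyl chain, and each prefers particular chain lengths. CERS5 and CERS6 favour palmitoyl-CoA, CERS4 favours stearoyl-CoA and somewhat longer chains, and CERS2, the main form of hepatocytes, favours very long chains. CERS6 (chromosome 2, 168455862 to 168775137) measured 28.7, 32.4 and 32.3 FPKM in controls and 39.3, 38.4 and 37.1 FPKM with fatty acid. The groups did not overlap, and control replicate 1 was the lowest library. CERS6 rose 1.23-fold, from 31.1 ± 2.1 to 38.3 ± 1.1 FPKM (SD, n = 3), with a log2 fold change of 0.29 ± 0.06 and a limma adjusted p of 0.0254.

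The call of CERS6 was near the threshold. It was lost without fatty acid replicate 1, 2 or 3 (limma adjusted p of 0.113, 0.102 and 0.0597), with scaling to the median of ratios, by quantiles or to nuclear reads (0.0624, 0.0907 and 0.0602), with no filter (0.0519) and without the intensity trend (0.0648). Its log2 fold change stayed between 0.24 and 0.43 in all 17 alternatives.

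CERS4 (chromosome 19, 8206736 to 8262421) measured 8.63, 7.94 and 6.61 FPKM in controls and 5.24, 4.72 and 4.82 FPKM with fatty acid. Each fatty acid library was below the lowest control. CERS4 fell from 7.72 ± 1.0 to 4.93 ± 0.28 FPKM (SD, n = 3), and its mean dropped by 36.2%, with a log2 fold change of -0.59 ± 0.10 and a limma adjusted p of 0.0128. The call was lost without fatty acid replicate 2 (0.0646) and held in the other 16 alternatives, with log2 fold changes of -0.69 to -0.47 over all 17.

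CERS5 (chromosome 12, 50129306 to 50167533) measured 2.51, 2.39 and 2.27 FPKM in controls and 2.92, 3.14 and 2.68 FPKM with fatty acid. The groups did not overlap, and the means differed by 21.9%, nearly as much as for CERS6. The log2 fold change was 0.24 ± 0.09, and CERS5 was not called (limma adjusted p = 0.122). It is among the thinnest members in reads: the 102 reads of control replicate 2 allow 1.95 to 2.90 FPKM (exact 95% Poisson interval, counting error only).

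CERS2 (chromosome 1, 150960583 to 150975004) measured 76.4, 65.1 and 67.4 FPKM in controls and 69.6, 67.2 and 68.2 FPKM with fatty acid. All fatty acid values lay within the range of the controls, whose highest was replicate 1. Its log2 fold change was -0.02 (95% interval -0.18 to 0.13, limma adjusted p = 0.842), and it was positive after rescaling to TPM (0.11) and without control replicate 1 (0.04). CERS1 and CERS3 were listed at 0 in all 6 libraries.

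Among the 4 synthases the share of CERS6 was higher and that of CERS4 lower in every fatty acid library, while the summed levels overlapped between groups. The sum was 111 ± 4.7 FPKM in controls and 114 ± 2.3 FPKM with fatty acid (SD, n = 3). CERS6 made up 24.7, 30.1 and 29.7% of it in controls against 33.6, 33.8 and 32.9% with fatty acid. CERS4 made up 7.42, 7.36 and 6.09% in controls against 4.48, 4.16 and 4.28% with fatty acid. Neither range overlapped between groups.

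CERS5 contributed 2.16 ± 0.062% in controls against 2.55 ± 0.20% with fatty acid, and CERS2 62.7 ± 2.7% and 59.7 ± 0.64%. The ratio of CERS6 to CERS4 was 3.33, 4.09 and 4.88 in controls against 7.49, 8.14 and 7.69 with fatty acid. This ratio restates the opposite changes of its genes within each library. These shares and ratios describe the mix and were not tested. Their size depends on the gene length used: per length of the longest coding transcript, CERS6 made up 17.3 ± 2.1% in controls against 21.2 ± 0.34% with fatty acid, and CERS4 9.58 ± 0.96% and 6.12 ± 0.23%, with a mean ratio of 1.83 ± 0.35 in controls against 3.46 ± 0.15 with fatty acid. The CERS2 share differed by -2.99 points between groups, by -1.50 without control replicate 1 and by -1.12 per length of the longest coding transcript.

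**Figure D2:**
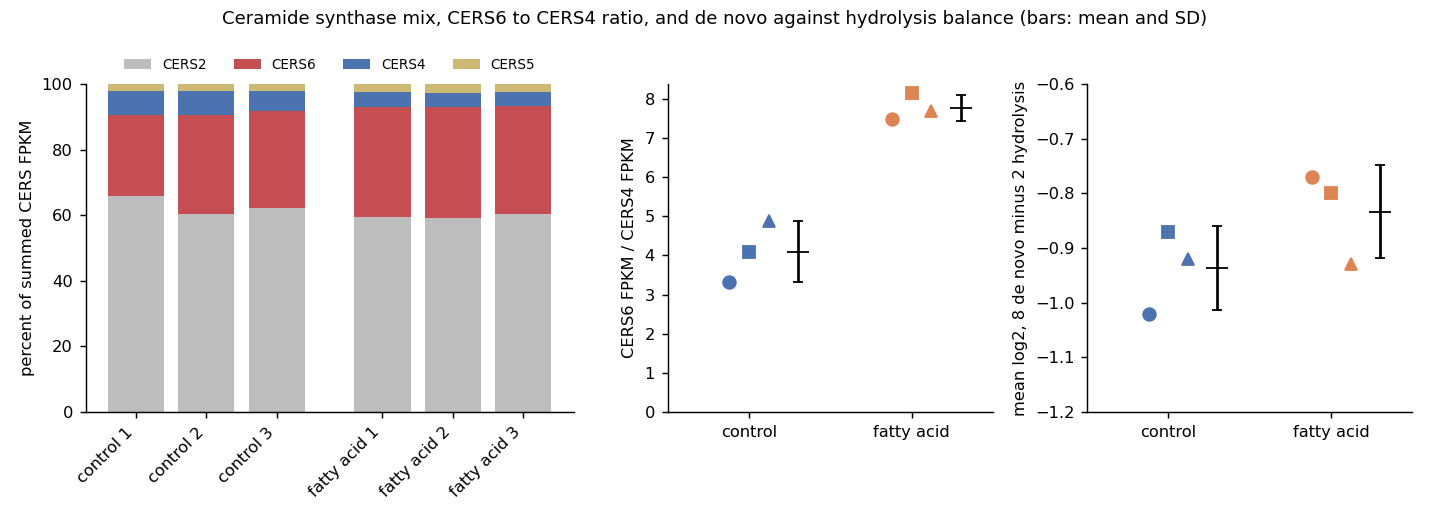
Left, stacked share of each ceramide synthase in the summed CERS FPKM of each library (percent, 0 to 100). Middle, CERS6 to CERS4 ratio of FPKM per library. Right, mean log2(FPKM + 0.5) of the 8 de novo genes minus that of the 2 hydrolases. Points are libraries (circle, square and triangle for replicates 1, 2 and 3), with mean and SD. The ratio runs from 3.33 to 4.88 in controls and from 7.49 to 8.14 with fatty acid, while the right panel's groups overlap.

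DEGS1, the desaturase that turns dihydroceramide into ceramide (chromosome 1, 224175756 to 224193441), measured 27.6, 27.8 and 26.8 FPKM in controls and 30.9, 30.7 and 27.3 FPKM with fatty acid. Fatty acid replicate 3 fell among the controls, and the 2 others lay above them. The log2 fold change was 0.11, with a 95% interval of -0.03 to 0.26 (limma adjusted p = 0.271). DEGS2, its relative that also hydroxylates, had 14 reads over the control libraries and 5 over the fatty acid libraries and was not tested.

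The 2 hydrolases act on opposite sides of ceramide. SMPD1, acid sphingomyelinase, releases it from sphingomyelin, and ASAH1, acid ceramidase, breaks it down. SMPD1 (chromosome 11, 6390431 to 6394998) measured 33.5, 26.1 and 25.6 FPKM in controls and 25.6, 25.4 and 27.6 FPKM with fatty acid. Control replicate 1 stood above the other 5 libraries, which spanned 25.4 to 27.6 FPKM. The log2 fold change was -0.10, with a 95% interval of -0.35 to 0.14 (limma adjusted p = 0.533). It was 0.02 without control replicate 1 and 0.03 after rescaling to TPM.

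ASAH1 (chromosome 8, 18055992 to 18084998) measured 16.6, 17.8 and 18.1 FPKM in controls and 17.0, 17.0 and 17.1 FPKM with fatty acid. The fatty acid libraries lay within the control range. The log2 fold change was -0.04 with a 95% interval of -0.16 to 0.09 (limma adjusted p = 0.701), and 0.10 after rescaling to TPM. Neither hydrolase had an unadjusted p below 0.05, and limma voom on the recovered reads called 0 of them.

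The balance of de novo genes against hydrolases was -1.02, -0.87 and -0.92 in controls against -0.77, -0.80 and -0.93 with fatty acid, as the difference of mean log2(FPKM + 0.5). The groups overlapped through fatty acid replicate 3, and the means differed by 0.10 with SDs of 0.078 and 0.086 (n = 3). The difference was 0.06 without control replicate 1 and 0.15 without fatty acid replicate 3. This was not tested. Since CERS4 fell while CERS6 rose within the de novo group, the mean hides opposite changes among its genes. The hydrolase side averages SMPD1, which releases ceramide, with ASAH1, which breaks it down. The balance therefore does not set ceramide production against its loss.

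The promoters of 4 de novo genes are shown because their values were higher in every fatty acid library than in any control, whether they were called (CERS6 and SPTSSA) or not (SPTLC1 and CERS5). KDSR and ORMDL2 lay on the same side and are not shown. Each run is the 250 bases before the start site in the RefSeq table of GRCh38.p14, 5′ to 3′ on the gene's strand. These start sites differ from the bounds of the counted genes. The CERS6 window lies inside the counted gene, those of CERS5 and SPTSSA lie partly inside, and that of SPTLC1 lies before its gene. Capitals mark a GC box (GGGCGG) or a CCAAT box (CCAAT), searched on both strands, with overlapping matches merged.
CERS6 (chr2:168456022-168456271, plus strand): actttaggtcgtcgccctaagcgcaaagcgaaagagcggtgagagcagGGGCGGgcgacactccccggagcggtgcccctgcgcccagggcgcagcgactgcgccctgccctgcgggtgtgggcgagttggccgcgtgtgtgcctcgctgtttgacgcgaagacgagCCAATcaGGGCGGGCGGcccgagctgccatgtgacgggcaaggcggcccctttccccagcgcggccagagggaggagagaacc
CERS5 (chr12:50167370-50167619, minus strand): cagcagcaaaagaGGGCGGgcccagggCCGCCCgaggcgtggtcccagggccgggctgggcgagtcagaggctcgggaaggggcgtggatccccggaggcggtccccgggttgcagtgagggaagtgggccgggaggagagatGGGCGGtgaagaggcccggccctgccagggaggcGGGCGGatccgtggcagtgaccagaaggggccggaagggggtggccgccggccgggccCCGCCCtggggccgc
SPTLC1 (chr9:92115414-92115663, minus strand): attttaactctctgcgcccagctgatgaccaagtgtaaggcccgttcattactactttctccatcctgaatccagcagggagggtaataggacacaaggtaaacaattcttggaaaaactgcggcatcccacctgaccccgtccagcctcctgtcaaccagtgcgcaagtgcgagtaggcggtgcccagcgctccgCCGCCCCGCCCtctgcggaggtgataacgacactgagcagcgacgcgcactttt
SPTSSA (chr14:34462241-34462490, minus strand): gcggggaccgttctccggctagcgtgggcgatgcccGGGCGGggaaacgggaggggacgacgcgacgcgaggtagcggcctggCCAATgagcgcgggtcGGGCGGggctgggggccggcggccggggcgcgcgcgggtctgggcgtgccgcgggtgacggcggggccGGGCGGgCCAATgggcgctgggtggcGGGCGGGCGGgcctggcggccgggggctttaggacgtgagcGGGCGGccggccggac

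GC boxes numbered 3 in the CERS6 window, 5 in CERS5, 2 in SPTLC1 and 6 in SPTSSA. Of 35116 promoter windows of this length, 42.6% held at least 1. KDSR, which was called, held 3. SMPD1, SPTLC2 and DEGS1 were not called and their groups overlapped: SMPD1 held 6, SPTLC2 held 2 and the 2 windows of DEGS1 held 4 and 0. A CCAAT box was found once in CERS6 and 2 times in SPTSSA, where 11240 of the 35116 windows hold one, and 3 times in SPTLC2. No TATAAA or CACGTG letters were in any of the 4 windows, where 10.7% and 6.34% of all windows hold them. The windows of KDSR and DEGS1 lie inside their counted genes, and those of SMPD1 and SPTLC2 partly inside. Of the 10 members, 6 had an entry in the table. The matches are descriptions of letters, not of bound sites.

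By FPKM in controls the order was CERS2 at 69.6, CERS6 at 31.1, SMPD1 at 28.4, DEGS1 at 27.4, ASAH1 and SPTLC1 both at 17.5, CERS4 at 7.72, SPTLC2 at 4.25, SPTLC3 at 2.65 and CERS5 at 2.39. Neighbours whose control libraries overlapped were CERS6 and SMPD1, SMPD1 and DEGS1, ASAH1 and SPTLC1, and SPTLC3 and CERS5. With fatty acid CERS6 no longer overlapped SMPD1, and SPTLC1 lay above ASAH1. The order rests on the counted length, which for ASAH1 was 15378 bases, 5.06 times its longest coding transcript in GENCODE 29, and for CERS6 1.00 times. Per length of the longest coding transcript, ASAH1 came second at 88.3 in controls and CERS6 sixth at 31.2. Fold changes do not depend on this length.

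Counts in the lists outside the members stand against the 12.9% of all tested genes that were called. Of 13 genes that use or carry ceramide or lipids made from it, 1 rose and 0 fell (median log2 fold change 0.02). SGMS2, a sphingomyelin synthase of the plasma membrane, rose from 5.48 ± 0.86 to 7.93 ± 0.23 FPKM (SD, n = 3, limma adjusted p = 0.0227), while the Golgi form SGMS1 measured 5.58 ± 0.086 and 5.43 ± 0.096 FPKM. UGCG, which makes glucosylceramide, had a log2 fold change of -0.03 (95% interval -0.18 to 0.12). SAMD8, a ceramide phosphoethanolamine synthase, measured 3.02 ± 0.43 and 4.09 ± 0.33 FPKM and was not called (limma adjusted p = 0.0593).

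Of 14 tested genes that release ceramide, degrade its glycolipids or are only sphingomyelinase-like, 3 rose and 2 fell, with a median log2 fold change of -0.009. GBA2, the glucosylceramidase outside lysosomes, fell to 7.26 ± 0.28 FPKM from 9.79 ± 0.91 FPKM (limma adjusted p = 0.0204), as did the sphingomyelinase-like gene SMPDL3A, to 8.66 ± 0.61 FPKM from 10.9 ± 0.70 FPKM (0.0352). Among the risers were the lysosomal glycosidase genes NEU1 and GLA, with log2 fold changes of 0.27 and 0.33 (limma adjusted p of 0.0269 and 0.0374). GALC was listed at 0 in all libraries. For this and the other genes listed at 0, the files do not show whether the 0 comes from the cells or from the counting.

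Of 10 tested genes, made up of FAAH and genes that cleave ceramide or handle its products, limma called 0. At an unadjusted p below 0.05 there were 3, the ceramidase gene ACER2, the lipid phosphatase gene PLPP3 and the fatty acid amide hydrolase gene FAAH, with log2 fold changes of 0.23, 0.19 and -0.39 (limma adjusted p of 0.144, 0.151 and 0.117). Voom on recovered reads called 1 of the 10, FAAH (0.0391). Of 4 tested carriers and receptors of sphingosine 1-phosphate, 2 fell and 0 rose. APOM, the lipoprotein-bound carrier made by hepatocytes, fell to 1.79 ± 0.10 FPKM from 3.47 ± 0.48 FPKM (limma adjusted p = 0.00553), as did the receptor gene S1PR1, to 2.57 ± 0.13 FPKM from 3.44 ± 0.30 FPKM (0.0402). Both rest on few reads, 26 to 60 per library for APOM and 64 to 133 for S1PR1. Of 10 genes of ceramide effectors, the phosphatase inhibitor gene SET rose, by 0.25 ± 0.04 on the log2 scale (limma adjusted p = 0.0145), and 0 fell.

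Most of these calls did not hold with 1 library fewer, at log2 fold changes of like size. Those of SMPDL3A, GLA and S1PR1 were lost whichever library was left out, at -0.36 to -0.27, 0.28 to 0.38 and -0.40 to -0.30 (-0.32, 0.33 and -0.36 with all 6, limma adjusted p of 0.0567 to 0.132, 0.0546 to 0.132 and 0.0635 to 0.141). That of SGMS2 was lost without control replicate 3 (0.0682) and without each fatty acid library (0.0963, 0.0937 and 0.0588 for replicates 1, 2 and 3), at 0.43 to 0.62 over the 6 omissions. GBA2 lost its call without fatty acid replicate 1, 2 or 3 (0.084, 0.0917 and 0.0519), at -0.47 to -0.34 over the 6, and SET without fatty acid replicate 1 or 2 (0.0801 and 0.0756). NEU1 was lost without control replicate 2 or 3 (0.0567 and 0.069) and without fatty acid replicate 1 or 2 (0.121 and 0.114). After rescaling to TPM, GBA2, SMPDL3A and S1PR1 were not called (0.0762, 0.169 and 0.123). With no filter SGMS2, SMPDL3A, GLA and S1PR1 were not (0.061, 0.0715, 0.078 and 0.0942). Without the intensity trend NEU1, SMPDL3A, GLA, S1PR1 and SET were not (0.0604, 0.0661, 0.0671, 0.0507 and 0.0568). GLA also lost its call with median-of-ratios, quantile and nuclear-read scaling and with voom (0.075, 0.0602, 0.0836 and 0.0514). S1PR1 also lost its call with the replicate block (0.0762). APOM was called without each library in turn (0.0124 to 0.0342).

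**Figure D3:**
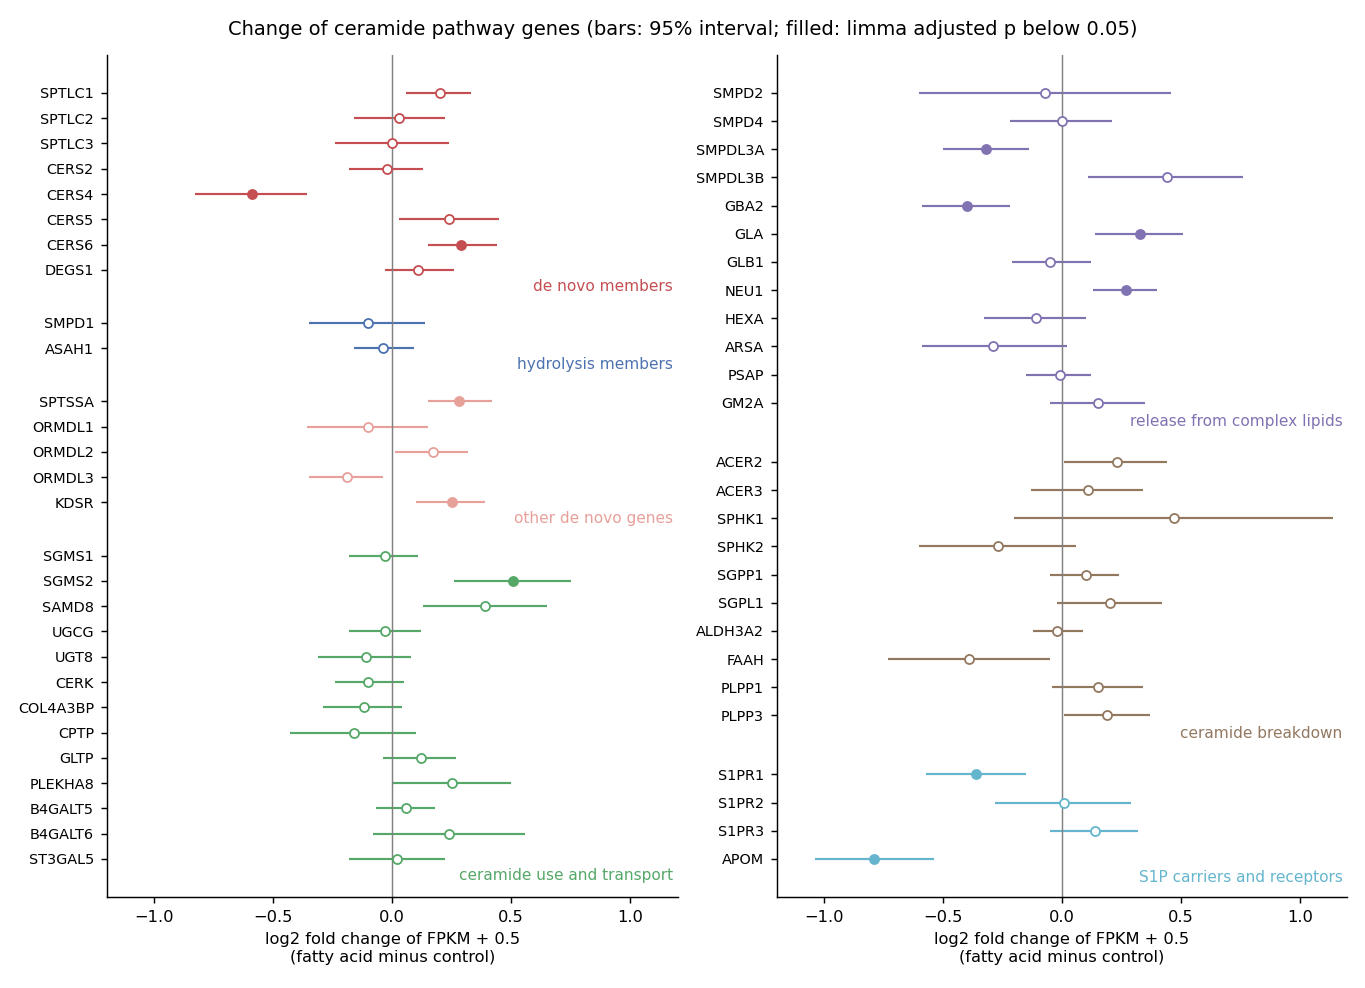
Log2 fold change (fatty acid minus control, FPKM + 0.5) with 95% interval of the tested genes of the pathway lists other than the effectors (2 that are not reported here are left out), grouped by step and coloured by list; filled points have a limma adjusted p below 0.05. CERS4 at -0.59 and APOM at -0.79 lie farthest left among the filled points, and SGMS2 at 0.51 farthest right.

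Among the marker lists of cell types the culture could hold, many genes of the hepatocyte list were called, in both directions. Of 17 tested hepatocyte markers, 10 fell and 5 rose (median log2 fold change -0.49). The summed level of the list ran from 20220 to 21190 FPKM in controls and from 17900 to 18320 FPKM with fatty acid. The albumin gene ALB alone gave 11690 to 12320 FPKM and 6826 to 7439 FPKM, whereas the other 17 genes summed to 8439 to 8866 FPKM and 10870 to 11070 FPKM. CPS1, TTR, AHSG and TF, genes of the urea cycle and of plasma proteins, fell, with log2 fold changes of -1.56, -1.27, -1.26 and -1.05. The fibrinogen genes FGA, FGB and FGG, also of plasma proteins, rose, with log2 fold changes of 0.67, 0.71 and 0.65. These 7 calls held without each library in turn. The further risers were HP (0.39) and SERPINA1 (0.27), whose calls were lost in 2 and 5 of the 6 omissions (limma adjusted p up to 0.0706 and 0.136). HP lost its call without fatty acid replicate 1 or 2, and SERPINA1 without any library but control replicate 1. Among the fallers, APOA1 stayed called in 2 of the 6 omissions, and APOH and HNF4A in 4 each (limma adjusted p up to 0.0906, 0.0634 and 0.0547). The other fallers kept their calls in all 6. Biliary markers gave limma calls for 0 of 5 tested, with 1 at an unadjusted p below 0.05 (KRT7, log2 fold change 0.41) and 0 called by voom, and summed to 376 to 449 FPKM and 374.9 to 389 FPKM. EPCAM was listed at 0.

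Of 6 mesenchymal markers, LUM rose by 0.45 on the log2 scale and 0 fell (sums of 100.4 to 110.4 and 117.5 to 125.3 FPKM), and THY1 was listed at 0. Voom called 4 of the 6. At an unadjusted p below 0.05 there were 4, LUM, COL1A1, COL3A1 and DCN. COL1A1 and COL3A1 were lower (log2 fold changes of -0.62 and -0.3) and DCN was higher (0.23), with limma adjusted p of 0.0655, 0.06 and 0.0593. The call of LUM was lost without fatty acid replicate 1 (limma adjusted p = 0.0538). Of 3 tested immune and endothelial markers, KDR fell by 0.66 on the log2 scale and 0 rose (sums of 51.3 to 55.9 and 40.2 to 41.6 FPKM), and CDH5 was listed at 0. KDR, at 40.7 ± 3.5 FPKM in controls and 25.6 ± 0.97 FPKM with fatty acid, made up most of these sums. Below the minimum lay 7 genes of the list, among them the endothelial genes PECAM1, VWF, STAB2 and CDH5. KDR was thus the only endothelial gene of the list that was tested. In bulk RNA a change in the number of cells of a type and a change in the RNA of single genes per cell cannot be told apart. The part of these markers in the changes of CERS4, CERS6 or APOM was not tested.

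The scaling between libraries bears on small changes such as these. Of 1891 called genes, 1205 were higher and 686 lower, whereas scaling to the median of ratios gave 717 and 861, quantile normalization 761 and 773, and nuclear reads 706 and 828. Rescaling to TPM moved the median over all tested genes (log2 fold change) from 0.04 to 0.16 and gave 2615 higher and 412 lower. Under that scaling SPTLC1 was called higher (log2 fold change 0.33, limma adjusted p = 0.029) and CERS4 remained lower (-0.47, 0.0281).

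**Figure D4:**
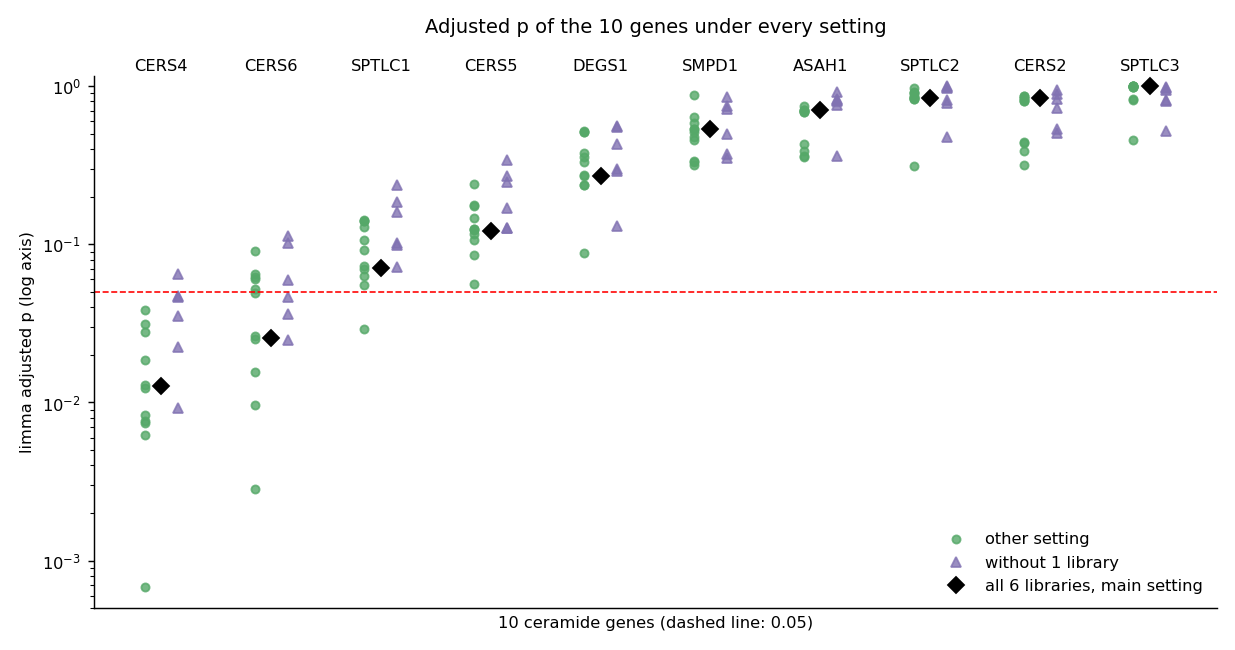
Limma adjusted p (log axis) of the 10 genes under the main setting (black diamonds), the other settings (green circles) and without each library in turn (purple triangles), with a dashed line at 0.05. CERS4 lies below the line in all but 1 alternative, CERS6 lies on both sides of it, SPTLC1 crosses it once, and the other 7 genes stay above it in the 17 alternatives.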

How the data were processed

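RNA was measured in 6 libraries, 3 per group, made from 100 ng RNA each with a stranded mRNA kit, per the labels' protocols. STAR 2.5.2, Subread 1.5.1, featureCounts and GRCh38 are listed in the submitters' processing notes. Strand setting and annotation are not given in the sources used here. Overlapping antisense genes (SETDB1 over CERS2, for example) may share reads. The authors deposited FPKM values for 58037 genes with, per the file headers, each gene's position and length in bases as another column. FPKM times length was a whole multiple of 1 step per library (100% of finely printed values, tolerance 0.02 reads), which gave the reads. Within-group libraries differed by more than sampling noise.

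Groups and replicate numbers came from the titles. The 14661 genes that averaged 0.5 FPKM or more entered limma 3.58.1 (R 4.3.3, intensity trend, Benjamini-Hochberg) on log2(FPKM + 0.5). The test was first tried on simulated data with known changes. It recovered 56.7% of the 1.5-fold and 77.6% of the 2-fold changes, and 8.3% of its calls were unchanged genes. The simulated spread was a fixed setting, not fitted to these libraries, and no change as small as that of CERS6 was simulated. Members, lists and tests were chosen with earlier results of these data known. Named genes were all members, of each other list at most 4 called genes, taken by lowest adjusted p (the 1 of lowest p where none was called), and PLIN2, PDK4, ANGPTL4 and CPT1A. GLA, SAMD8, ACER2, PLPP3, ALB, FGA, FGB, FGG, HP, SERPINA1, UGCG, SGMS1, the ORMDL genes and genes listed at 0 or below the minimum were named after their values were seen. So were COL1A1, COL3A1, DCN, APOA1, APOH and HNF4A. Alternatives were pseudocounts of 0.1 and 1, no filter, a minimum of 2 FPKM, 4 scalings, no trend, voom, the replicate block and each library left out. Some genes of the lists are counted but not reported here by name.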

Additional observations from a re-analysis of the deposited data

How the results depend on the processing

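Over the 10 ceramide genes and 17 alternatives, 144 of 170 results kept their direction and their side of the threshold. Reversals of direction numbered 16, all in genes that were not called, besides 9 losses of a call (8 of CERS6 and 1 of CERS4) and 1 gain (SPTLC1). Values that reversed were those of SPTLC2 with median-of-ratios and nuclear-read scaling (-0.02 each) and without fatty acid replicate 1 or 2 (-0.01 and -0.0015), of SPTLC3 with the same 2 scalings (-0.04 each), quantile normalization (-0.0046), voom (-0.0019) and when control replicate 1 (-0.09) or either of fatty acid replicates 1 and 3 was left out (-0.01 each), of CERS2 and SMPD1 with TPM (0.11 and 0.03) and without control replicate 1 (0.04 and 0.02), and of ASAH1 with TPM (0.10). Without 1 library the log2 fold changes ran from -0.01 to 0.10 for SPTLC2, -0.09 to 0.05 for SPTLC3, -0.07 to 0.04 for CERS2 and -0.17 to 0.02 for SMPD1. The cause was not tested.

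Calls among the 10 genes numbered 2, and 1 with no filter, median-of-ratios, quantile or nuclear-read scaling or no trend, when 0 were higher; with TPM 2 were higher. Without 1 library the number was 0 to 2, with 0 to 1 higher and 0 to 1 lower. Calls over all genes numbered 1891, and 977 with no filter, 3027 with TPM, 1101 without the trend, 2997 with voom and 462 to 1612 without 1 library. With the replicate block 1474 genes and 2 of the 10 were called. Same-numbered libraries had deviations from their group means correlated at 0.012, 0.084 and 0.022, against -0.094 to 0.073 for libraries of unlike number. These values cannot show whether the cultures were set up in pairs, which the labels do not say. With the longest coding transcript as length, an alternative chosen after seeing the data, the CERS4 share differed by -3.45 points in place of -2.65 the CERS5 share by 0.686 in place of 0.39 and the CERS2 share by -1.12 in place of -2.99. Without 1 library the balance differed by 0.06 to 0.15 and the SPTLC3 share by -1.86 to 0.434 points. The fewest reads were those of CERS5 (102 to 304), SPTLC3 (153 to 363) and CERS4 (178 to 317).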
